A study of Homo sapiens with 6 samples.

Results

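The collagen genes of HEY cells, a cell line from a human ovarian cancer, were followed in RNA-seq libraries of cells that overexpressed CSGALNACT2 (oeCSGALNACT2) and of cells with an empty vector (Vector). A gene was taken as a collagen gene when the FPKM table listed it as protein coding and its symbol consisted of COL, a number, A and a number, which gave 44 genes among the 19951 protein-coding genes and the 58735 genes in all. FPKM is the number of sequenced fragments scaled for the length of the gene and for the depth of the library, so levels of different genes can be set side by side. The study used CSGALNACT2, a Golgi N-acetylgalactosaminyltransferase that starts and lengthens chondroitin sulfate chains, to ask how it affects the behavior of ovarian cancer cells. There were 3 libraries of oeCSGALNACT2 cells, which carried the overexpression plasmid, and 3 libraries of Vector cells. Both groups were HEY cells, grown in DMEM with fetal bovine serum and transfected. The study's methods describe a lentiviral vector with selection of the cells by puromycin, and a legend speaks of stable overexpression. The labels do not say whether the 3 replicates were grown apart, so p-values measure the spread between libraries and this spread may be technical.

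Collagens are triple helices of polypeptide chains built from Gly-X-Y repeats, with glycine at the start of each triplet, and the chain that a gene encodes decides into which type it assembles. Fibrillar collagens form the cross-striated fibers of connective tissue, network-forming type IV collagens build basement membranes, type VI forms beaded filaments around cells, and FACIT collagens sit on fibril surfaces. Chains are hydroxylated and folded in the endoplasmic reticulum, trimmed and cross-linked outside the cell, and bound by integrins and discoidin domain receptors. In ovarian carcinoma, much of the interstitial collagen is made by fibroblasts of the stroma, which are not part of a cell line culture, while carcinoma cells themselves meet collagen I and IV when they invade. Some collagens (types IX, XII and XIV) are themselves substituted with chondroitin sulfate, and types XV and XVIII carry chondroitin or heparan sulfate.

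The libraries held 15628834 to 18186682 reads. CSGALNACT2 itself had 535, 453 and 409 FPKM in oeCSGALNACT2 cells, against 15.3, 8.18 and 8.12 FPKM in Vector cells. It averaged 466 ± 63.6 FPKM in oeCSGALNACT2 cells and 10.5 ± 4.13 FPKM in Vector cells (SD, n = 3 libraries each), a log2 fold change of 5.39 in limma (adjusted p = 0.00302, SE 0.27), with an exact two-sided permutation p of 0.1, the smallest that 3 libraries against 3 allow. The titles of the oeCSGALNACT2 samples name CSGALNACT1, whose level was at most 0.141 FPKM in oeCSGALNACT2 cells and 0.303 FPKM in Vector cells. Of the markers of carcinoma cells, the keratins KRT8 and KRT18 and the transcription factor PAX8 were abundant, but CDH1 and MUC16 stayed at or below 0.0197 FPKM and EPCAM at or below 1.23 FPKM in every library. Only KRT8 and KRT18 of the 5 epithelial markers had a mean of at least 1 FPKM, and KRT19 did not. All of the 4 ovarian carcinoma markers but MUC16 did, thus also WT1 and MSLN. The 7 fibroblast markers summed to 2.85 to 5.38 FPKM in oeCSGALNACT2 cells and 2.19 to 3.53 FPKM in Vector cells, of which only FAP had a mean of at least 1 FPKM. The 4 endothelial markers summed to 6.50 to 10.7 FPKM in oeCSGALNACT2 cells and 20.3 to 31.3 FPKM in Vector cells, again through 1 gene, CDH5, while PECAM1, VWF and KDR stayed below a mean of 1 FPKM. None of the 5 leukocyte markers reached a mean of 1 FPKM. The 5 epithelial markers, carried by KRT8 and KRT18, summed to 279.8 to 449.6 FPKM in oeCSGALNACT2 cells and 131 to 225 FPKM in Vector cells, and mitochondrial genes took 4.60% to 4.82% of reads in oeCSGALNACT2 libraries and 2.77% to 3.61% in Vector libraries. The part of these differences in the results below was not tested.

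Most collagen genes had few reads or none in these cells. A mean of at least 1 FPKM over the 6 libraries, the filter of the test, was reached by 14 of the 44 genes. Another 9 averaged 10 reads or more but stayed at or below 0.770 FPKM in any library, 17 had fewer reads than that, and 4 had no read in any library. At the edge of the filter, COL18A1 and COL13A1 lay just inside with means of 1.34 and 1.18 FPKM, and COL6A3 and COL9A2 just outside with 0.534 and 0.523 FPKM. The genes with no read were COL2A1, COL3A1, COL9A1 and COL23A1, for which 0 reads allow up to 3 reads in each library, or at most 0.0489 FPKM (COL23A1). COL3A1, the companion of type I collagen in soft connective tissue, was thus below 0.0271 FPKM, a limit that covers counting error only. By subfamily, 4 of 11 fibrillar genes, 3 of 6 type IV genes, 2 of 7 genes of beaded filaments and related types, 2 of 4 transmembrane genes, 1 of 10 FACIT genes, 1 of 2 multiplexin genes and the single anchoring fibril gene passed the filter, and none of the 3 short chain network genes did.

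Type VI collagen carried most of the collagen mRNA. COL6A2 had 36.8, 117 and 123 FPKM in oeCSGALNACT2 cells, against 45.8, 122 and 144 FPKM in Vector cells, and COL6A1 had 37.0, 102 and 104 FPKM in oeCSGALNACT2 cells, against 38.5, 94.4 and 112 FPKM in Vector cells. The pair made up 58.9% to 69.7% of the summed collagen FPKM in oeCSGALNACT2 cells and 58.7% to 69.3% in Vector cells. The 2 genes are neighbors on chromosome 21 of GRCh38 (COL6A1 at chr21:45981737-46005050, COL6A2 at chr21:46098097-46132849), and the canonical type VI monomer joins their chains with that of COL6A3. COL6A3 (at chr2:237324003-237414375) was far below both, with 0.269, 0.565 and 0.454 FPKM in oeCSGALNACT2 cells, against 0.427, 0.717 and 0.770 FPKM in Vector cells. Its level was 0.00438 to 0.00727 of that of COL6A1 in oeCSGALNACT2 libraries and 0.00688 to 0.0111 in Vector libraries, so this chain was far below its partners in every library of both groups. COL6A5 and COL6A6, which encode alternative chains of the COL6A3 kind, had at most 6 reads in a library.

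**Figure D1:**
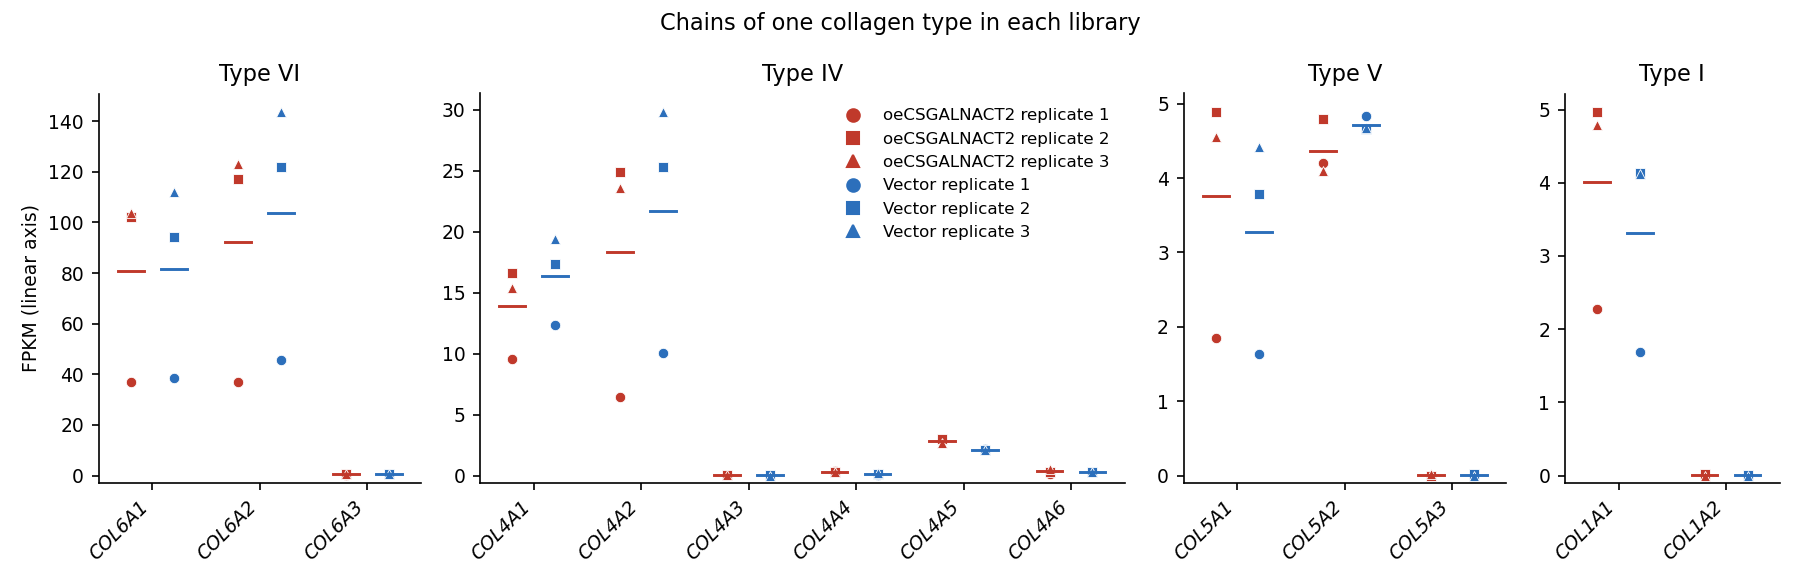
FPKM (linear axis, each panel with its own scale) of the chains of types VI, IV, V and I in each library, oeCSGALNACT2 left of Vector for each gene. Symbols mark replicate numbers and bars mark group means. COL6A3, COL4A3, COL5A3 and COL1A2 lie at or near 0 in all 6 libraries, beside partner chains that reach 144 FPKM (COL6A2), 29.8 FPKM (COL4A2), 4.89 FPKM (COL5A1) and 4.97 FPKM (COL1A1).

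The basement membrane collagens were next in level. COL4A2 had 6.42, 24.9 and 23.6 FPKM in oeCSGALNACT2 cells, against 10.1, 25.3 and 29.8 FPKM in Vector cells, and COL4A1 had 9.56, 16.6 and 15.4 FPKM in oeCSGALNACT2 cells, against 12.3, 17.4 and 19.4 FPKM in Vector cells. Their products assemble with each other into the common form of type IV collagen, and the genes lie head to head on chromosome 13 (COL4A1 on the minus strand at chr13:110148963-110307233, COL4A2 on the plus strand at chr13:110305812-110513209), where their annotated ends overlap. Whether the counting used strand is not given in the sources used here, so reads from the overlap cannot be assigned to one of them with certainty. The COL4A2 level was 0.672 times that of COL4A1 in oeCSGALNACT2 replicate 1 and 0.816 times in Vector replicate 1, but 1.49 and 1.53 times in oeCSGALNACT2 replicates 2 and 3 and 1.46 and 1.54 times in Vector replicates 2 and 3. The ratio of the chains thus differed between replicate 1 and replicates 2 and 3, while the ranges of the groups overlapped. COL4A5, whose chain belongs to the tissue-restricted forms of type IV and is mutated in Alport syndrome, had 2.88, 3.01 and 2.70 FPKM in oeCSGALNACT2 cells, against 2.19, 2.06 and 2.07 FPKM in Vector cells. Its head-to-head neighbor on the X chromosome, COL4A6, was below the filter with 0.165, 0.323 and 0.536 FPKM in oeCSGALNACT2 cells, against 0.282, 0.328 and 0.299 FPKM in Vector cells. COL4A4 and COL4A3, the other Alport syndrome chains, had at most 0.335 FPKM (COL4A4) in any library.

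Among the fibrillar collagens, levels were low, and COL1A2 and COL5A3 had few reads beside the other genes of their types. COL5A2 and COL5A1 encode the chains of type V collagen, which starts fibrils. COL5A2 had 4.20, 4.80 and 4.10 FPKM in oeCSGALNACT2 cells, against 4.83, 4.66 and 4.67 FPKM in Vector cells, and COL5A1 had 1.86, 4.89 and 4.55 FPKM in oeCSGALNACT2 cells, against 1.64, 3.79 and 4.41 FPKM in Vector cells. COL5A3, the remaining type V gene, had at most 2 reads in a library. COL1A1, the main chain of type I collagen, had 2.27, 4.97 and 4.78 FPKM in oeCSGALNACT2 cells, against 1.68, 4.14 and 4.12 FPKM in Vector cells. COL1A2, which encodes the other chain of the usual type I heterotrimer, had 7 reads over the 6 libraries, beside 3742 reads of COL1A1. COL27A1, which encodes a fibrillar collagen known from cartilage, was the highest of the fibrillar genes with 4.10, 11.0 and 8.79 FPKM in oeCSGALNACT2 cells, against 3.25, 6.56 and 7.35 FPKM in Vector cells. The gene lies at chr9:114155560-114312511, and in each pair of libraries with the same replicate number it was higher in oeCSGALNACT2 cells, although the ranges of the groups overlapped.

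COL7A1, the anchoring fibril collagen that ties the basement membrane of skin to the dermis, had 5.14, 13.7 and 11.4 FPKM in oeCSGALNACT2 cells, against 6.81, 15.3 and 18.2 FPKM in Vector cells. It was lower in oeCSGALNACT2 cells in each pair with the same replicate number, although the ranges of the groups overlapped. COL12A1, a FACIT collagen found with type I fibrils, varied less between libraries than the other genes at its level, with 10.7, 17.8 and 14.5 FPKM in oeCSGALNACT2 cells, against 12.2, 14.8 and 14.3 FPKM in Vector cells. The transmembrane collagens are given here after their values had been seen. COL17A1, a component of hemidesmosomes, had 1.32, 2.64 and 2.75 FPKM in oeCSGALNACT2 cells, against 1.20, 1.60 and 1.83 FPKM in Vector cells, and COL13A1, which is found at cell junctions, had 0.522, 1.61 and 0.975 FPKM in oeCSGALNACT2 cells, against 0.713, 1.53 and 1.71 FPKM in Vector cells. COL18A1, the multiplexin from which endostatin is cleaved, had 0.367, 1.62 and 1.56 FPKM in oeCSGALNACT2 cells, against 0.335, 2.11 and 2.03 FPKM in Vector cells, but it overlaps SLC19A1 on the other strand, which had a mean of 787 reads against 199 of COL18A1, so its level is uncertain.

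**Figure D2:**
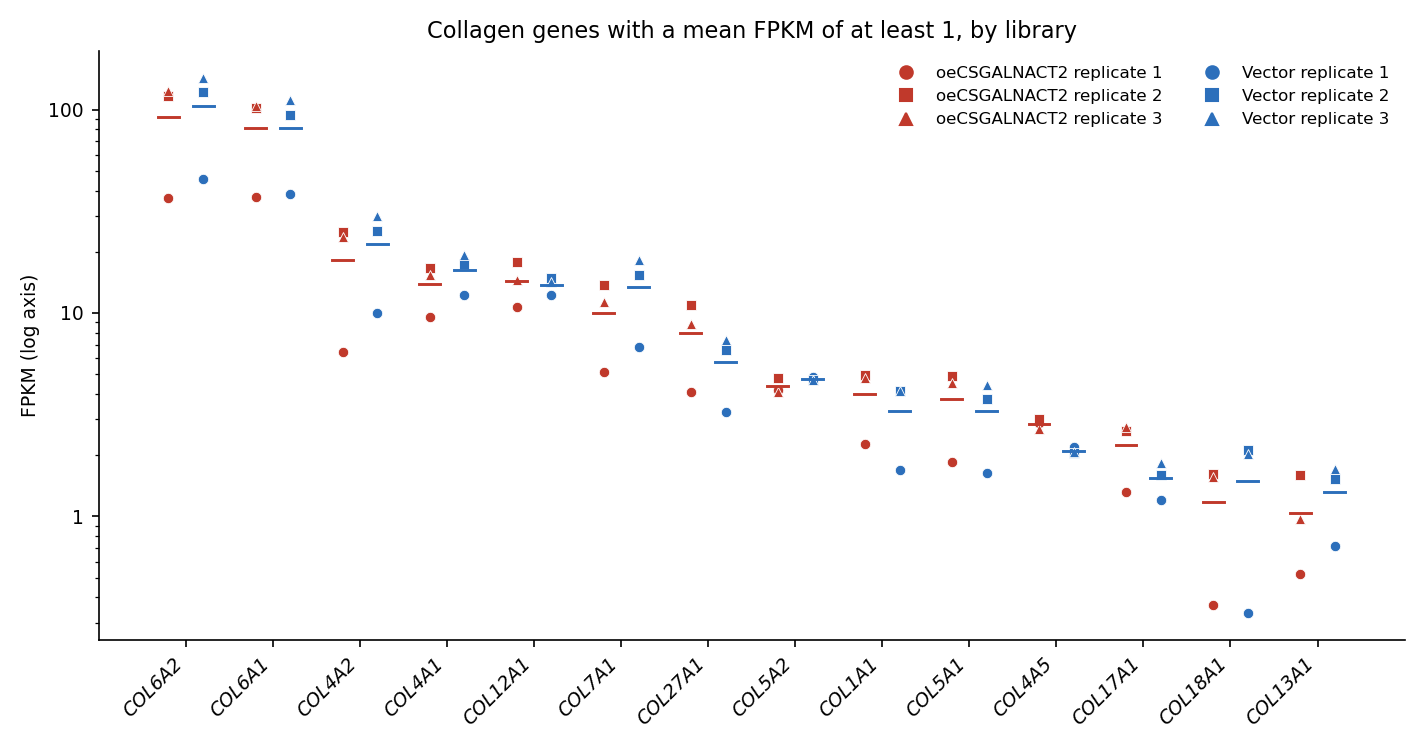
FPKM (log axis) of the 14 collagen genes that passed the filter, one symbol per library and bars for group means, oeCSGALNACT2 left of Vector. Replicate 1 (circles) is the lowest library of its group for 12 of the 14 genes in oeCSGALNACT2 cells and for 12 of 14 in Vector cells, and only COL4A5 has every oeCSGALNACT2 library above every Vector library.

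For most collagen genes replicate 1 stood further from replicates 2 and 3 than the groups stood from each other. Replicate 1 had 0.306 times the mean COL6A2 level of replicates 2 and 3 in oeCSGALNACT2 cells and 0.345 times in Vector cells, and for COL18A1 the ratio was 0.231 in oeCSGALNACT2 cells and 0.162 in Vector cells. For COL5A2 it was 0.944 in oeCSGALNACT2 cells and 1.04 in Vector cells, and for COL4A5 1.01 in oeCSGALNACT2 cells and 1.06 in Vector cells. The order went with the base composition of the transcripts. GC content, taken from the longest GENCODE transcript of a gene, was 66.4% for COL6A2 and 67.2% for COL18A1 but 47.9% for COL5A2 and 50.9% for COL4A5. Across the 14 collagen genes the log2 ratio of replicate 1 to replicates 2 and 3 had a Pearson's r with GC content of -0.88 in oeCSGALNACT2 cells and -0.91 in Vector cells, and a Spearman's rho of -0.87 and -0.91, as a description of genes that share the same libraries. All 11476 tested genes with a GC value were taken on FPKM + 1, and the collagens on FPKM, so the coefficients are not on the same measure. Across all these genes, r was -0.76 in oeCSGALNACT2 cells and -0.80 in Vector cells, so the relation was not limited to collagens. The collagens lay at its GC-rich side, with a median GC content of 60.7% against 47.4% for all tested genes. The labels give no batch, date or lane that would separate replicate 1, and what set it apart was not tested.

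Coding sequences are shown for 3 of these genes, chosen because they lie toward opposite ends of the range of replicate 1 ratios and of GC content. Each is the first 90 bases of the longest uninterrupted run of Gly-X-Y triplets, read 5′ to 3′ on the coding strand from the longest coding sequence of the gene in GENCODE 29 (GRCh38), with the first codon of each triplet, a glycine codon, in capitals. The first is from a type VI gene that was low in replicate 1, and the others are from a type V and a type IV gene that were not.
COL6A2: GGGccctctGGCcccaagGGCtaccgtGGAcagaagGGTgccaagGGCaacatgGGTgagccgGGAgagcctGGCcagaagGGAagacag
COL5A2: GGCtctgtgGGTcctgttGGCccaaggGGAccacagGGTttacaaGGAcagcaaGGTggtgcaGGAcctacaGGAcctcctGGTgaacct
COL4A5: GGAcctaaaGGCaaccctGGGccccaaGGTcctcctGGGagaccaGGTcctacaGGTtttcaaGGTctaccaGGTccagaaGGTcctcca
The stretch of COL6A2 spans codons 256 to 285 in 2 exons (chr21:46114038-46115925, plus strand), that of COL5A2 codons 213 to 242 in 3 exons (chr2:189085737-189088703, minus strand) and that of COL4A5 codons 1249 to 1278 in 4 exons (chrX:108668459-108677525, plus strand). The glycine triplets are shared by all 3. The genes differ in how many codons end in G or C, which their choice by GC content favors. Over the whole coding sequence, 60.6% of glycine codons ended in G or C in COL6A2 and 65.4% in COL6A1, against 30.3% in COL5A2 and 28.5% in COL4A5. Over all codons, the last base was G or C in 80.9% of COL6A2 and 79.0% of COL6A1, but in 28.8% of COL5A2 and 28.7% of COL4A5. The repeat itself took up 32.4% of the codons of COL6A2 (runs of at least 6 triplets), 71.4% of COL5A2 and 79.3% of COL4A5. COL12A1 had 8.19% of its codons in such runs and 39.3% of its codons ending in G or C. In COL1A1, 34.8% of glycine codons and 47.5% of all codons ended in G or C. Its replicate 1 ratio was nonetheless 0.466 in oeCSGALNACT2 cells and 0.408 in Vector cells. Whether the last base of the codons goes with the replicate 1 ratio was not tested.

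**Figure D3:**
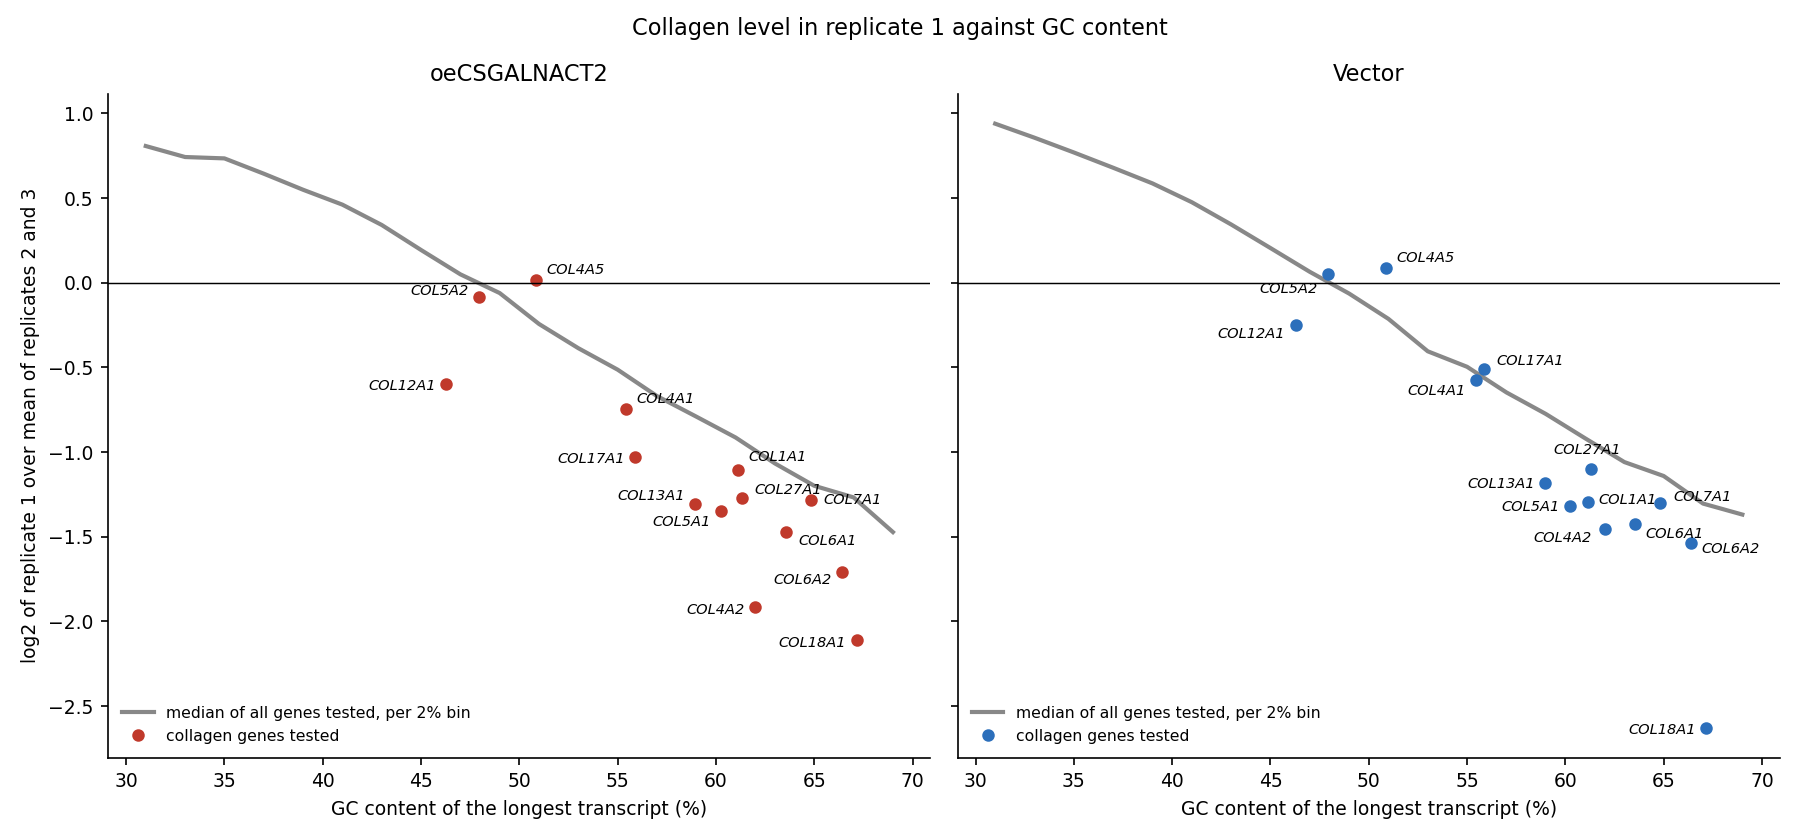
Log2 of the level in replicate 1 over the mean of replicates 2 and 3 against the GC content of the longest transcript, for the 14 collagen genes (points, FPKM) and as the median of all tested genes per 2% bin with at least 20 genes (grey line, FPKM + 1), oeCSGALNACT2 left and Vector right. COL5A2 and COL4A5 lie near 0 and COL6A2, COL4A2 and COL18A1 lie lowest or close to it at the GC-rich side in both groups.

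The comparison of oeCSGALNACT2 with Vector cells was made with limma on log2(FPKM + 1) over all 11479 genes with a mean of at least 1 FPKM, with Benjamini-Hochberg adjustment over all of them. This scale understates the change of low genes. No collagen gene passed an adjusted p of 0.05 (0 of 14, where 1.35% of all genes tested did), and none had an unadjusted p under 0.05 in limma. On the recovered reads, edgeR called 0 of 23 collagen genes (0.971% of all genes tested were called) and DESeq2 called 0 of the 26 to which it gave an adjusted p (4.54% of all such genes were called), with 1 collagen gene (COL4A5) at an unadjusted p under 0.05 in edgeR and 0 in DESeq2. The log2 fold changes reached from -0.38 (COL7A1) to 0.39 (COL27A1) with a median of -0.06, beside a median of -0.01 for all genes tested. The intervals were wide for the GC-rich genes: the 95% interval of the log2 fold change was -1.67 to 1.28 for COL6A2, -1.34 to 1.30 for COL6A1 and -1.76 to 1.15 for COL4A2, so that changes of 2-fold in either direction lay within them. They were narrower for COL5A2 (-0.43 to 0.24), COL12A1 (-0.49 to 0.56) and COL4A5 (-0.02 to 0.64). In bulk RNA, fewer cells with a transcript and less of it per cell cannot be told apart.

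The libraries with the same replicate number deviated together across genes (r = 0.81, 0.631 and 0.686 for numbers 1, 2 and 3). Libraries numbered 2 and 3 also did so across numbers (0.59 and 0.682), so only replicate 1 was set apart by this. When the replicate number entered limma as a block, 3 of 14 collagen genes passed, 2 higher and 1 lower, where 43.7% of all genes tested passed. COL7A1 averaged 10.1 ± 4.41 FPKM in oeCSGALNACT2 cells and 13.5 ± 5.93 FPKM in Vector cells (SD, n = 3 libraries each), a log2 fold change of -0.38 (SE 0.10 with the block and 0.46 without, adjusted p = 0.0343 and 0.743 from limma). COL27A1 averaged 7.97 ± 3.52 FPKM in oeCSGALNACT2 cells and 5.72 ± 2.18 FPKM in Vector cells, a log2 fold change of 0.39 (SE 0.11 with the block, adjusted p = 0.0361, and 0.696 without it, from limma). COL4A5, chosen for description after its values had been seen, averaged 2.86 ± 0.155 FPKM in oeCSGALNACT2 cells and 2.11 ± 0.0755 FPKM in Vector cells, a log2 fold change of 0.31 (SE 0.09 with the block, adjusted p = 0.0458, and 0.317 without it, from limma). In COL4A5 replicate 1 was close to replicates 2 and 3 in both groups, and the difference between its groups was larger than the spread within either. COL7A1 and COL27A1 differed between the groups by less than replicate 1 differed from replicates 2 and 3.

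The other 11 tested collagens did not pass limma with the block, but their intervals were then narrower. On the reads, edgeR with the block called 8 of 23 collagen genes, where 42.3% of all genes tested were called. Besides the 3 genes above and COL6A3 these were COL4A1 (log2 fold change -0.22, adjusted p = 0.0358), COL4A2 (-0.30, adjusted p = 0.0283), COL1A1 (0.33, adjusted p = 0.0189) and COL17A1 (0.53, adjusted p = 0.0196). In limma with the block, the log2 fold change of COL6A1 was -0.02 with a 95% interval of -0.18 to 0.15, an interval that holds 0. For COL6A2 it was -0.19 (-0.37 to -0.02, adjusted p = 0.0713), for COL4A2 -0.31 (-0.59 to -0.02, adjusted p = 0.0771) and for COL4A1 -0.24 (-0.43 to -0.04, adjusted p = 0.0607, limma). COL1A1 had 0.23 (0.02 to 0.43, adjusted p = 0.0739), COL5A1 had 0.15 (-0.09 to 0.39) and COL5A2 had -0.09 (-0.30 to 0.11). The chains of type IV did not share a direction. COL4A1 and COL4A2 had negative fold changes that missed the threshold in limma with the block and passed in edgeR with the block, while COL4A5 was higher in oeCSGALNACT2 cells in both. No test of the difference between COL4A5 and the other chains was made. The level of COL4A5 was 0.301, 0.181 and 0.175 times that of COL4A1 in oeCSGALNACT2 replicates 1, 2 and 3, against 0.178, 0.118 and 0.107 times in Vector replicates 1, 2 and 3, so the ratio was higher in oeCSGALNACT2 cells in each of the 3 pairs, while the ranges of the groups overlapped.

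**Figure D4:**
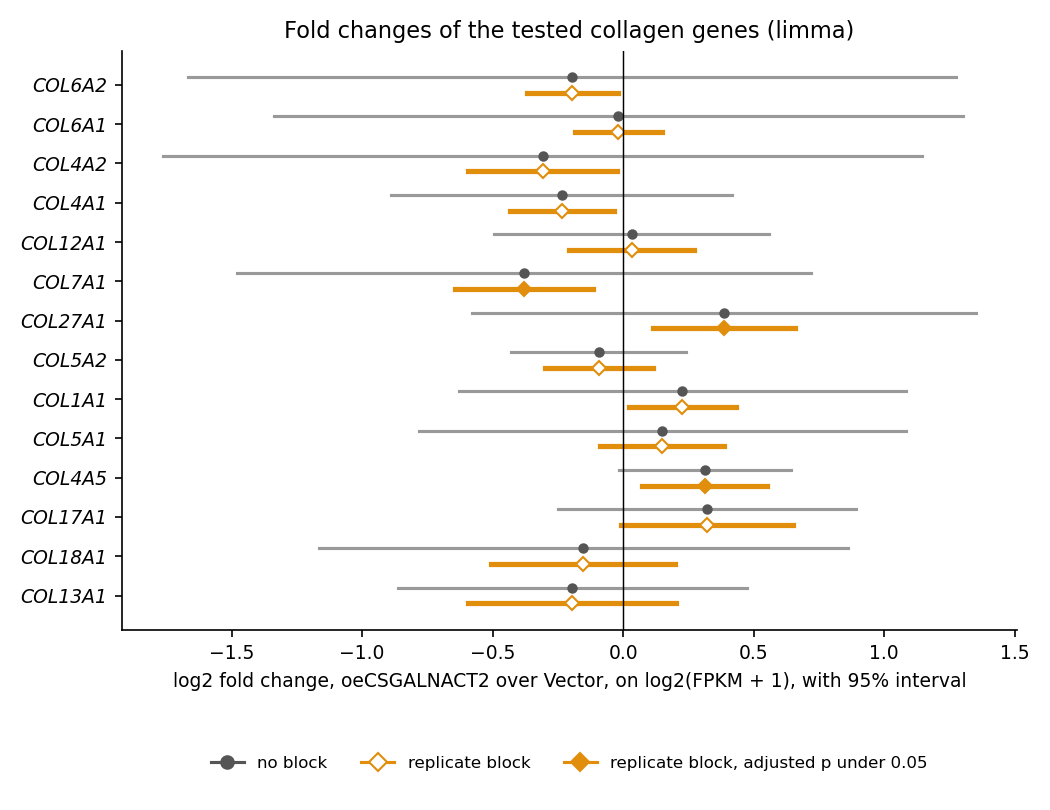
Log2 fold change (oeCSGALNACT2 over Vector, on log2(FPKM + 1)) of the 14 collagen genes with 95% intervals from limma, without a block (grey circles) and with the replicate block (orange diamonds, filled where the adjusted p was under 0.05). The interval of COL6A2 is -0.37 to -0.02 with the block and -1.67 to 1.28 without, and COL7A1, COL27A1 and COL4A5 are filled.

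Without replicate 1 of either group, limma called 4 of 14 collagen genes, against 41.8% of all genes tested. These were COL27A1 (log2 fold change 0.45, adjusted p = 0.0338), COL4A5 (0.33, 0.0425), COL17A1 (0.44, 0.0201) and COL7A1 (-0.40, 0.0499). The same 3 genes as with the block were thus among them, and COL17A1 was added. Fits on values freed of each library's trend with GC content, still without a block, gave 2 calls of 14 against 24.1% of all genes tested, namely COL7A1 (-0.55, adjusted p = 0.0121) and COL4A1 (-0.33, adjusted p = 0.0367). When the block was added to that fit, 5 of 14 were called against 42.6% of all genes tested, and all 5 were lower in oeCSGALNACT2 cells: COL7A1, COL4A1, COL4A2, COL6A2 and COL6A1 (adjusted p = 0.0497). COL27A1 (0.25, adjusted p = 0.0845) and COL4A5 (0.27, adjusted p = 0.0616) then missed the threshold. Over all genes tested, the fold change between the groups itself rose with GC content. Its median was -0.22 in the 2% bin centered at 33% GC and 0.23 in that at 65%, the lowest and the highest of the bins. In the bins at the ends of the range it was -0.11 (31%) and 0.17 (69%). Removing the trend thus lowered the log2 fold changes of GC-rich genes, from -0.02 to -0.17 for COL6A1 and from -0.19 to -0.37 for COL6A2. The shared direction of the 5 calls is therefore partly set by this step. COL7A1 was the only collagen gene that passed in each of these 4 fits, but it was not among the 2 called (COL27A1 and COL4A5) with a trend on gene length removed and the block, where 44.5% of all genes tested were called. Its estimated log2 fold change lay between -0.55 and -0.38 in the 4. Without the block its value rested on single libraries, at -0.0020 and -0.63 when replicate 1 or 2 of oeCSGALNACT2 was left out, and at -0.77, -0.24 and -0.12 when replicate 1, 2 or 3 of Vector was. In fits chosen after seeing the data, edgeR on replicates 2 and 3 called 7 of 23 collagen genes, where 45.2% of all genes tested were called, and limma with the block on every gene with FPKM above 0 called 0 of 40 (7 at an unadjusted p under 0.05), where 9.51% of all genes tested were called.

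Collagens below the filter of limma were compared by their reads. Of the 23 collagen genes with a mean of at least 10 reads, 3 had every oeCSGALNACT2 library above every Vector library, where 11.7% of all genes with such a mean did, and 0 had every oeCSGALNACT2 library below, where 13.1% did. They were COL4A5, COL4A4 and COL8A1. COL4A4, which encodes a chain of the type IV network of glomerular basement membranes, had 55, 44 and 56 reads in oeCSGALNACT2 cells, against 7, 27 and 36 reads in Vector cells. Its mean level was 0.299 FPKM in oeCSGALNACT2 cells and 0.134 FPKM in Vector cells, a 2.23-fold difference. The edgeR test gave an adjusted p of 0.336 without and 0.0567 with the block. COL8A1, a short chain collagen of vessel walls and the cornea named after its values had been seen, had 42, 50 and 30 reads in oeCSGALNACT2 cells, against 24, 25 and 21 reads in Vector cells, a 1.75-fold difference in mean FPKM (edgeR, adjusted p = 0.321 without and 0.171 with the block). COL6A3, also named after its values had been seen, had 86, 189 and 163 reads in oeCSGALNACT2 cells and 138, 254 and 256 reads in Vector cells. It passed edgeR with the block (log2 fold change -0.55, adjusted p = 0.0203), and not without it (adjusted p = 0.509). The 17 genes with still fewer reads had at most 13 reads in a library. Some had most or all of their reads in 1 library: 10 of the 11 reads of COL20A1 were in oeCSGALNACT2 replicate 1, and all 6 reads of COL28A1 in Vector replicate 1.

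Because CSGALNACT2 makes chondroitin sulfate, the genes of collagen types that carry glycosaminoglycan chains were read out on their own. A type can carry the chain on the product of only some of its genes. Of 7 such genes, 3 had a mean of at least 10 reads. COL12A1 averaged 14.4 ± 3.57 FPKM in oeCSGALNACT2 cells and 13.8 ± 1.38 FPKM in Vector cells (SD, n = 3 libraries each), with a log2 fold change of 0.03 (95% interval -0.21 to 0.27 with the block). COL18A1, given above, had a log2 fold change of -0.15 (-0.51 to 0.20 with the block, adjusted p = 0.413 from limma). COL9A2, a cartilage FACIT gene, had 28, 53 and 37 reads in oeCSGALNACT2 cells, against 21, 41 and 48 reads in Vector cells, a ratio of mean FPKM of 1.07. COL9A1 had no read, and COL9A3, COL14A1 and COL15A1 had at most 13 reads in a library. Neither COL12A1 nor COL18A1 passed limma without or with the block, and edgeR gave COL9A2 an adjusted p of 0.915 without the block and 0.793 with it.

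Genes that make, bind and degrade collagen were described from lists. Of the 38 genes of collagen synthesis and assembly, 30 were tested, and 0 passed in limma, where 1.35% of all genes did. At an unadjusted p under 0.05 there were 4, and the share of all genes at such a p is not given here. On the reads, edgeR called 0 of 34, where it called 0.971% of all genes. DESeq2 called 2 of the 37 with a read (5.41%). It called 731 of all 28102 genes with a read, which was 4.54% of those with an adjusted p. The median log2 fold change of the 30 in limma was 0.10, beside -0.01 for all genes tested. With the block, 7 were higher and 6 lower in oeCSGALNACT2 cells, 13 of 30 where 43.7% of all genes passed. The 4 with the smallest p were TLL2, ADAMTS3, PPIB and KLHL12. TLL2, a tolloid-like protease of the family that cleaves procollagen C-propeptides, had 1.28, 1.93 and 2.07 FPKM in oeCSGALNACT2 cells, against 0.470, 0.782 and 0.551 FPKM in Vector cells. ADAMTS3, a procollagen N-propeptidase, had 2.41, 1.55 and 1.68 FPKM in oeCSGALNACT2 cells, against 1.03, 0.796 and 0.840 FPKM in Vector cells. Both are proteases that act outside the cell, while PPIB and KLHL12 act within it. PPIB, the prolyl isomerase cyclophilin B of the endoplasmic reticulum, had 42.1, 44.3 and 46.5 FPKM in oeCSGALNACT2 cells, against 33.8, 26.8 and 32.0 FPKM in Vector cells. KLHL12, an adaptor of the ubiquitin ligase for large COPII coats, had 9.94, 11.5 and 12.1 FPKM in oeCSGALNACT2 cells, against 16.5, 15.7 and 15.0 FPKM in Vector cells. The groups did not overlap for these 4 genes, which their choice by p favors. Of all genes with a mean of at least 10 reads, 11.7% had every oeCSGALNACT2 library above every Vector library and 13.1% had every one below. The 4 genes had adjusted p-values in limma of 0.105, 0.161, 0.185 and 0.200 without the block and 0.0114, 0.0174, 0.00829 and 0.0122 with it. DESeq2 called TLL2 and ADAMTS3. Among the subunits of prolyl 4-hydroxylase, P4HA2 (0.47, adjusted p = 0.00626) and P4HB (0.42, adjusted p = 0.00420) were higher with the block. SERPINH1, the collagen chaperone HSP47, had a log2 fold change of 0.17 (-0.01 to 0.35 with the block). The cargo receptor of procollagen MIA3 (TANGO1) was lower with the block (-0.35, adjusted p = 0.0117). LOX, which cross-links collagen, was higher (0.40, adjusted p = 0.00724) and its relative LOXL2 lower (-0.26, adjusted p = 0.0323) with the block.

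Among the collagen receptors, all genes called with the block were lower in oeCSGALNACT2 cells. Of 13 receptor genes, 9 were tested and 0 passed in limma, where 1.35% of all genes did. At an unadjusted p under 0.05 there were 4, again without the share of all genes. On the reads, edgeR called 0 of 11, where it called 0.971% of all genes. DESeq2 called 2 of the 12 with a read (16.7%). It called 731 of all 28102 genes with a read, which was 4.54% of those with an adjusted p. The median log2 fold change of the 9 in limma was -0.44. With the block 7 of 9 were lower and 0 higher in oeCSGALNACT2 cells, where 43.7% of all genes passed. Of all 11479 genes tested, 2439 were called higher and 2578 lower with the block. DDR2, a receptor tyrosine kinase for fibrillar collagen, had 15.8, 16.3 and 14.1 FPKM in oeCSGALNACT2 cells, against 32.9, 30.2 and 27.2 FPKM in Vector cells, a log2 fold change of -0.92 (limma, SE 0.16, adjusted p = 0.0544 without and 0.000789 with the block). OSCAR, an immunoglobulin-like receptor that binds collagen on osteoclast precursors, had 8.02, 16.6 and 17.0 FPKM in oeCSGALNACT2 cells, against 28.8, 60.9 and 68.0 FPKM in Vector cells, a log2 fold change of -1.82 (limma, SE 0.42, adjusted p = 0.0978 without and 0.000317 with the block). The groups did not overlap in either gene, which their choice by p favors, and DESeq2 called both. ITGA2, the integrin subunit of the collagen receptor of epithelial cells, had 10.9, 11.0 and 10.3 FPKM in oeCSGALNACT2 cells, against 15.0, 15.5 and 14.0 FPKM in Vector cells (adjusted p = 0.196 in limma and 0.00423 with the block). CD44, a hyaluronan receptor that also binds collagen through its chondroitin sulfate chain, had 114, 99.5 and 102 FPKM in oeCSGALNACT2 cells, against 155, 131 and 129 FPKM in Vector cells (adjusted p = 0.283 in limma and 0.00508 with the block). DDR1, the discoidin domain receptor of epithelial cells, had a log2 fold change of -0.01 (-0.32 to 0.31 with the block).

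Of 19 collagen turnover genes, 14 were tested and 0 passed in limma, where 1.35% of all genes did. At an unadjusted p under 0.05 there were 5, again without the share of all genes. On the reads, edgeR called 0 of 15, where it called 0.971% of all genes. DESeq2 called 1 of the 16 with a read (6.25%). It called 731 of all 28102 genes with a read, which was 4.54% of those with an adjusted p. The median log2 fold change of the 14 in limma was 0.36. With the block 6 were higher and 3 lower, where 43.7% of all genes passed. TIMP3, a matrix-bound inhibitor of metalloproteinases, had 9.86, 11.5 and 10.9 FPKM in oeCSGALNACT2 cells, against 6.23, 5.90 and 6.06 FPKM in Vector cells (log2 fold change 0.73, SE 0.14, adjusted p = 0.0677 in limma and 0.00246 with the block). CTSL, a lysosomal cysteine protease, had 41.8, 33.3 and 34.0 FPKM in oeCSGALNACT2 cells, against 57.8, 62.0 and 62.4 FPKM in Vector cells (log2 fold change -0.73, SE 0.16, adjusted p = 0.0924 in limma and 0.00421 with the block). Neither gene overlapped between the groups, which their choice by p favors. MMP3, stromelysin, had 1.68, 1.72 and 1.55 FPKM in oeCSGALNACT2 cells, against 0.980, 0.568 and 0.837 FPKM in Vector cells, and FAP, a serine protease that degrades gelatin and was also among the fibroblast markers, had 4.61, 2.62 and 2.19 FPKM in oeCSGALNACT2 cells, against 1.92, 1.09 and 0.987 FPKM in Vector cells (adjusted p = 0.0286 and 0.00443 with the block). The groups did not overlap in these genes either, and they too were picked by p. MMP1, the interstitial collagenase, was higher (0.70, adjusted p = 0.00379) and MMP14, the membrane-bound collagenase, lower (-0.34, adjusted p = 0.0118) with the block. Of a list of 13 further matrix genes, 6 were tested and 1 passed in limma, where 1.35% of all genes tested did. It was CTGF, with 99.4, 91.4 and 89.2 FPKM in oeCSGALNACT2 cells, against 188, 168 and 171 FPKM in Vector cells (log2 fold change -0.91, SE 0.15, adjusted p = 0.0487). That call was lost without any 1 of the 6 libraries, at adjusted p-values of 0.0598 to 0.287. It was also lost in edgeR (0.0590, and 0.0574 with other size factors), in limma with a filter at 0.3 FPKM (0.0595) or no filter (0.0979), and with the length trend removed (0.0607). The call was kept in 10 alternatives, among them the block, DESeq2 and both fits with the GC trend removed. With the block 5 of the 6 tested matrix genes passed in limma, CTGF and CYR61 among them, 1 higher and 4 lower, where 43.7% of all genes passed.

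**Figure D5:**
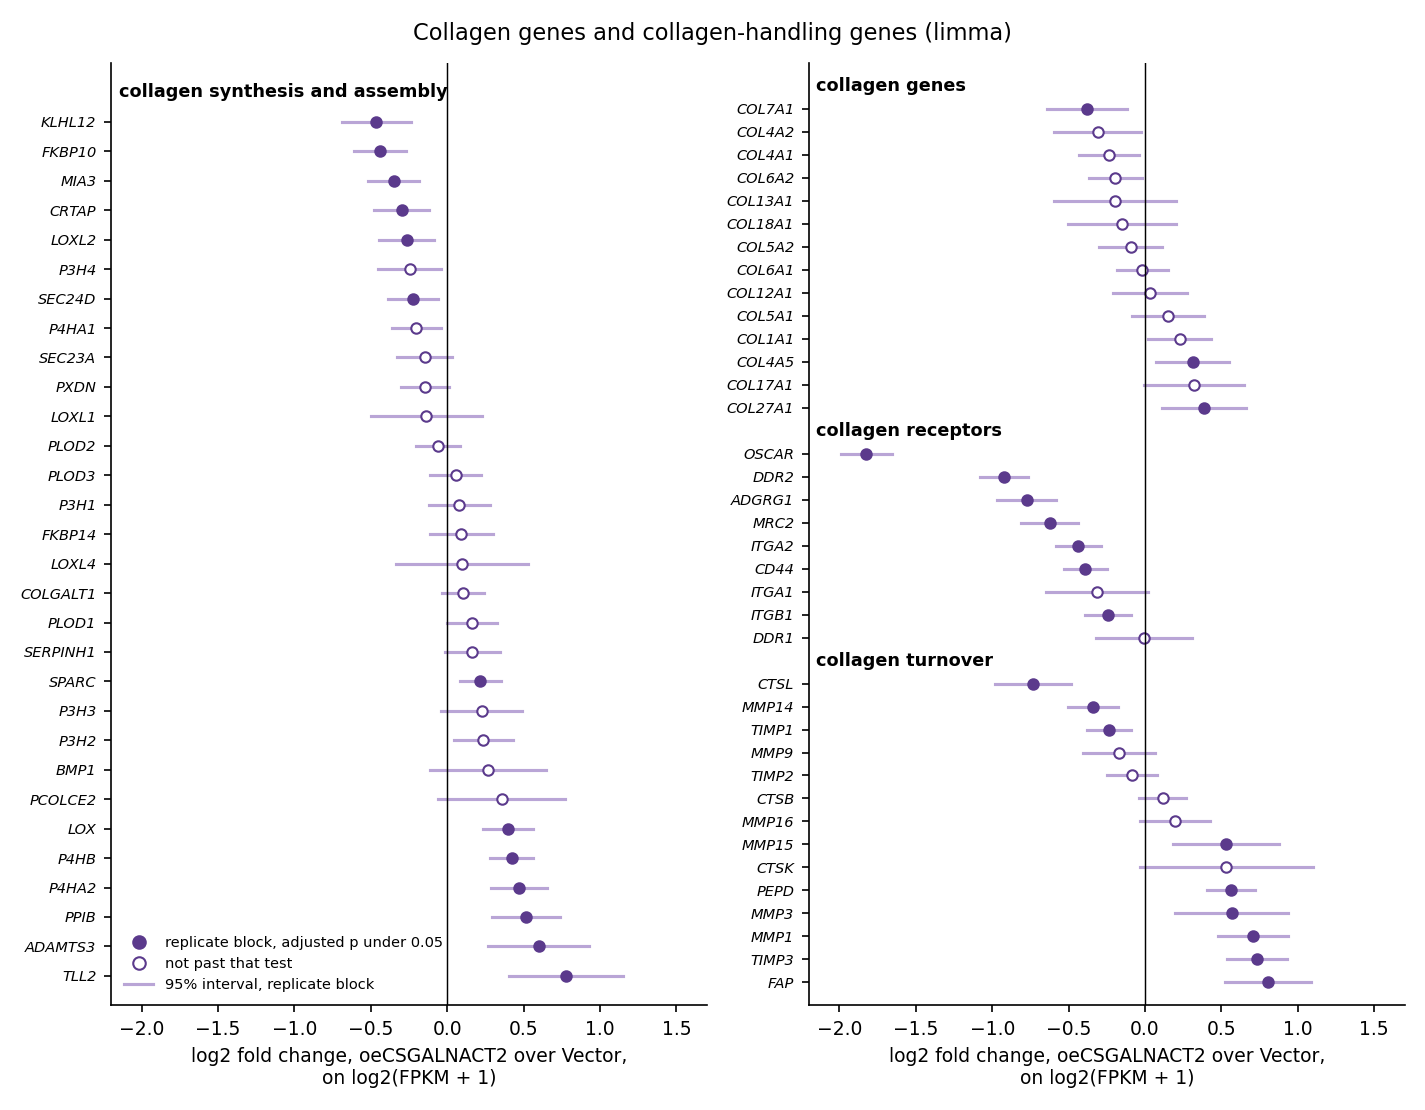
Log2 fold change (oeCSGALNACT2 over Vector, on log2(FPKM + 1)) of each tested gene of collagen synthesis and assembly (left) and of the collagen genes, collagen receptors and collagen turnover genes (right), with 95% intervals from limma with the replicate block. Filled points passed an adjusted p of 0.05 with the block. Of the receptors, 7 of 9 are filled and all 7 lie below 0, while the collagen genes lie between -0.38 and 0.39. Of all 11479 genes tested, 43.7% passed with the block, 2439 higher and 2578 lower.

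The summed level of all 44 collagen genes was 125, 330.5 and 325 FPKM in oeCSGALNACT2 libraries, against 143, 319 and 369 FPKM in Vector libraries. The means were 260.4 ± 117 FPKM in oeCSGALNACT2 cells and 277 ± 119 FPKM in Vector cells (SD, n = 3 libraries each), a ratio of 0.939. As a share of reads, collagen genes took 0.110%, 0.272% and 0.257% in oeCSGALNACT2 libraries and 0.122%, 0.260% and 0.297% in Vector libraries. Replicate 1 of both groups was low, and the difference between the groups was smaller than that spread.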

How the data were processed

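Libraries of HEY cell RNA with an RIN of at least 8.0 were prepared with the SMARTER mRNA kit. The authors deposited a table of counts (whole reads per gene, not normalized), of which the copy used here holds 1310 genes, and a table of FPKM values for 58735 genes. Aligner, counting tool and strand setting were not given in the sources used here. While mm10 is named in the submitters' notes, the coordinates of all 58735 genes match GENCODE 29 on GRCh38. Groups came from the sample descriptions.

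The deposited FPKM values were tested with limma 3.58.1 (R 4.3.3, trend on) on log2(FPKM + 1), keeping genes that averaged at least 1 FPKM, with Benjamini-Hochberg adjustment at 0.05. Reads recovered from the FPKM values were whole within 0.01 for 100% of values and equalled the counts of all 1310 genes. On them edgeR 4.0.16 called 139 genes and DESeq2 1.42.0 called 731, against 155 in limma. Tests were checked on simulated data. Limits at 0 reads use 3 reads per library.

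Deviations from group means correlated at r = 0.810, 0.631 and 0.686 between libraries numbered 1, 2 and 3. Since each was over 0.1, the numbers were treated as pairs, although the labels state no pairing and libraries numbered 2 and 3 also correlated across numbers (0.590 and 0.682).

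The members and lists were chosen with earlier results of these data known. Values in every library were due for collagen genes past limma, the 10 highest by mean FPKM, and those averaging at least 10 reads with at least a 2-fold difference and no overlap. They were also due for genes of glycosaminoglycan-carrying types averaging at least 10 reads. For other lists they were due for members past the test, or else the 4 with the smallest p. Further genes were named after their values had been seen. Of 38 assembly symbols, 37 were found. Alternatives were the pseudocount, filters, tools, size factors, the block, libraries left out, and lowess trends (span 0.3) on length or GC removed. Coding sequences and GC content came from GENCODE 29.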

Additional observations from a re-analysis of the deposited data

How the results depend on the processing

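Of 44 collagen genes, 30 were too low for the filter, replicate 1 of each group was the lowest library for 12 of the 14 tested, and reads of genes that overlap on opposite strands cannot be told apart. The collagen calls (0 of 14) became 3 with the replicate block, 4 with replicates 2 and 3 alone and 8 of 23 with edgeR and the block. They became 2 with the length trend removed and the block, 2 with the GC trend removed and 5 with that and the block. With edgeR on replicates 2 and 3, chosen after seeing the data, there were 7 (of all genes, 6589 of 14583), and limma on every gene with FPKM above 0 and the block, also chosen after seeing the data, gave 0, with 7 at an unadjusted p under 0.05 (of all genes, 2672 of 28102 were called). Leaving out 1 library gave 0 collagen calls each time.

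In the same settings (block, replicates 2 and 3 alone, edgeR with the block, length with the block, GC, GC with the block) assembly genes had 13, 11, 17, 14, 6 and 14 calls. These were of 30 genes tested, and of 34 in edgeR. Receptor and turnover genes together had 16, 15, 18, 16, 12 and 16, of 23 genes tested, and of 26 in edgeR. DESeq2 gave 2 and 3, and edgeR on every gene with a read gave 1 and 2, of 37 and 28 genes with a read. Over the whole table (155 of 11479) the counts were 5017, 4800, 6058, 5111, 2768 and 4890. These were 43.7%, 41.8%, 42.3%, 44.5%, 24.1% and 42.6% of all genes tested. There were 731 from DESeq2, 365 from edgeR on every gene with a read and 31 in limma without a filter, each of 28102 genes. Leaving out 1 library gave 5 to 159 calls over the table, with 5 without oeCSGALNACT2 replicate 2 or 3, and 7, 8 and 82 when Vector replicate 2, 3 or 1 was dropped. The causes were not tested.

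Directions of uncalled genes turned when 1 library was left out. The log2 fold changes then ranged from -0.70 to 0.36 for COL6A2, -0.48 to 0.47 for COL6A1, -0.76 to 0.28 for COL4A2, -0.13 to 0.22 for COL12A1, -0.084 to 0.51 for COL1A1, -0.17 to 0.48 for COL5A1 and -0.55 to 0.15 for COL18A1. COL6A1 also turned with replicates 2 and 3 alone (0.00045), edgeR (0.023) and edgeR with the block (0.015). The other tested collagens kept their sign, but without oeCSGALNACT2 replicate 1 the value was close to 0 for COL7A1 (-0.0020), COL4A1 (-0.0059) and COL13A1 (-0.0025), and the ranges reached to -0.77, -0.42 and -0.40. COL27A1 ranged from 0.086 (without Vector replicate 1) to 0.75, COL17A1 from 0.20 to 0.54, COL4A5 from 0.29 to 0.34 and COL5A2 from -0.15 to -0.06. The ratio of summed collagen FPKM (0.939) ranged from 0.757 to 1.18 and was above 1 without oeCSGALNACT2 replicate 1 and without Vector replicate 2 or 3. CSGALNACT2 passed in all 21 of its alternatives.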
